A study of Mus musculus with 12 samples.

Results

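Aminoacyl-tRNA synthetases load each tRNA with its amino acid. RNA levels were read here for 39 genes fixed by name: 20 encode the cytosolic enzymes, 16 encode enzymes of mitochondria, and Aimp1, Aimp2 and Eef1e1 encode the non-enzymatic scaffold proteins of the multisynthetase complex. These 39 are among 55073 genes with a matched transcript, and all 39 had at least 10 expected counts in every library, as did 15002 genes in all. The study removed Larp1, an RNA-binding protein that binds mRNAs with a terminal oligopyrimidine (TOP) start, from the mouse nervous system and sequenced cortex RNA. The labels define 2 groups, Larp1 WT (Nestin-Cre) and Larp1 KO (Nestin-Cre;Larp1-flox/flox), so the controls carry the Cre transgene too. The strain was C57BL/6J, and RNA came from the posterior cortex of 3 male mice per genotype, with ribosomal RNA depleted. No source read here states their age. The Nestin promoter drives Cre in progenitors of neurons and of some glia, so cells of other origin in the tissue, such as vessels, would keep Larp1.

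The files are numbered by mouse (678, 687, 688, 698, 700 and 703), and no source used here ties a number to a genotype. Larp1 itself ranged from 6.28 to 19.96 TPM (a share of all transcripts that is scaled for their length), and no genotype was read from it. All values below are therefore given per library in that order of mice, or as a range and median, with no test between libraries. The files do not state a tissue. Cortex was inferred from the labels, and the glutamate transporter gene Slc17a7 was at 346.5 to 491.9 TPM. Each library held between 34689262 and 44463362 expected counts. The lowest member count in any library was 428 for the cytosolic enzymes (Farsa), 110 for the mitochondrial ones (Pars2) and 295 for the scaffold genes (Eef1e1), at which counting error alone is 4.83%, 9.53% and 5.82% of the value.

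In the cytosol, the synthetases for arginine, aspartate, glutamine, glutamate, isoleucine, leucine, lysine, methionine and proline are held in one large assembly with the scaffold proteins, and the others work free of it. Glutamate and proline are served by a single fused protein, Eprs. Mitochondria translate their own few mRNAs with a separate set of synthetases, which are encoded in the nucleus and, apart from the enzymes for glycine and lysine, are products of separate genes. Their glutamine tRNA is charged indirectly, by amidation of glutamate. Transcription of many cytosolic synthetase genes is raised by ATF4, the factor made when amino acids run short, and mutations in synthetase genes of either kind cause neuropathies, leukodystrophies and encephalopathies.

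Nearly all cytosolic synthetase mRNAs lay above the median cortex mRNA. Their median TPM had a median of 12.7 over the 20 genes and ran from 5.56 for Tars to 50.4 for Sars, and 19 of the 20 lay above the median of 6.75 of 13618 detected nuclear protein-coding genes. Sars, which charges serine tRNA, was at 60.78, 46.94, 53.81, 46.50, 45.13 and 57.41 TPM. Nars, the asparagine enzyme, was at 53.43, 47.38, 47.92, 45.40, 38.40 and 57.47 TPM, and Gars, the glycine enzyme that serves both cytosol and mitochondria, at 33.26, 32.37, 32.37, 28.82, 27.24 and 39.58 TPM. Sars and Nars overlapped in range, as did Nars with Gars by less than 2 TPM, so Sars was above Gars throughout, while it was above Nars in 4 of 6 libraries. At the other end, Farsa, which encodes the catalytic subunit of the phenylalanine enzyme, was at 7.80, 6.80, 6.82, 7.52, 6.34 and 8.81 TPM. Tars, the threonine enzyme, was at 6.12, 5.76, 5.35, 4.90, 4.46 and 7.27 TPM. Every pair of neighbours in the order of the 20 genes had overlapping ranges.

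**Figure D1:**
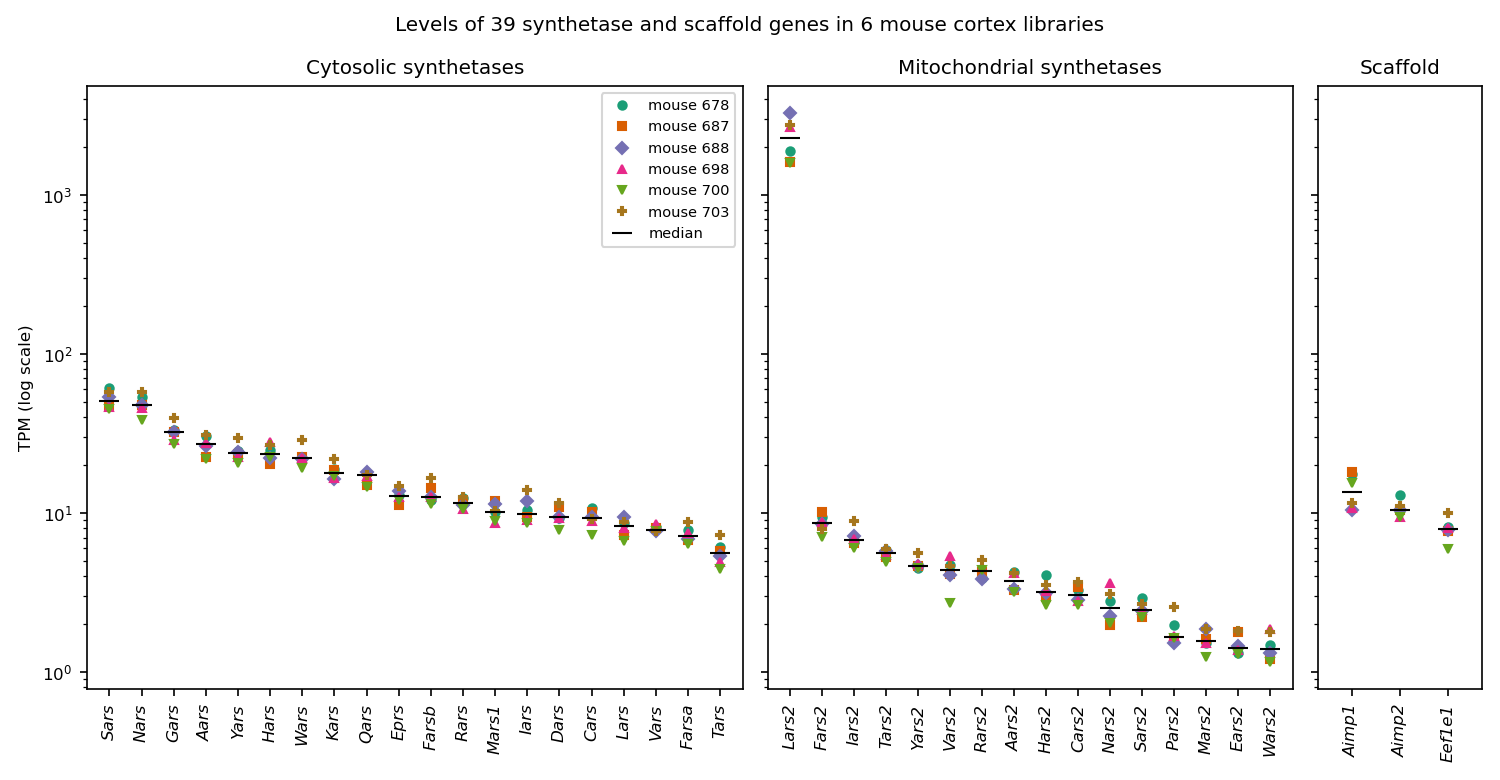
TPM on a log scale of the 20 cytosolic synthetases, 16 mitochondrial synthetases and 3 scaffold genes, each point 1 of the 6 libraries (1 mouse each) and the black dash the median. Lars2 stands at 1583.58 to 3244.33 TPM, while the next mitochondrial gene, Fars2, stands at 7.07 to 10.18.

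Between these ends lay genes for the remaining amino acids. Aars (alanine, median 27.0 TPM, range 21.94 to 31.03), Yars (tyrosine, median 23.9, range 20.69 to 29.77), Hars (histidine, median 23.6, range 20.29 to 27.81) and Wars (tryptophan, median 22.1, range 19.07 to 28.64) formed an upper tier. Kars (lysine, shared with mitochondria) had a median of 17.7 TPM (16.23 to 21.86) and Qars (glutamine) one of 17.2 (14.46 to 18.07). Eprs was at a median of 12.8 TPM (11.18 to 14.79), Farsb, the second phenylalanine subunit, at 12.6 (11.31 to 16.51), Rars (arginine) at 11.5 (10.60 to 12.53) and Mars1 (methionine) at 10.2 (8.61 to 11.88). Farsa and Farsb form one enzyme, yet Farsb was above Farsa in every library. Iars (isoleucine) was at a median of 9.90 TPM (8.61 to 14.02), Dars (aspartate) at 9.36 (7.83 to 11.56), Cars (cysteine) at 9.29 (7.23 to 10.72), Lars (leucine) at 8.33 (6.67 to 9.47) and Vars (valine) at 7.85 (7.66 to 8.51). Between its highest and lowest library Vars differed by 1.11-fold in TPM, the least of the 39 genes, but by 1.28-fold as a share of nuclear protein-coding TPM.

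The median level was lower over the genes of the multisynthetase complex than over the free enzymes, although the sets overlapped. The 8 synthetase genes of the complex (Eprs, Iars, Lars, Mars1, Qars, Kars, Rars and Dars) had a median of 10.8 TPM and spanned 8.33 to 17.7, while the 12 free enzymes had a median of 22.8 TPM and spanned 5.56 to 50.4. The free enzymes Tars, Farsa and Vars had lower medians than every one of the 8. The 8 summed to between 0.00862% and 0.0111% of TPM and the 12 to between 0.0232% and 0.0320%. The split by enzyme class went the same way: the 9 class I genes had a median of 10.2 TPM and the 10 class II genes, which include Sars, Nars, Gars and Aars, one of 20.7, with Eprs, which joins a class I and a class II enzyme, in neither. The splits by complex and by class share genes, and no difference between them was tested.

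Promoter letters of the kind bound by ATF4 occurred in some of the cytosolic genes. RefSeq promoter windows (GRCm38.p6, 250 bases before to 50 after an annotated start) were given for 30 of the 39 genes, and not for Cars, Hars, Lars, Nars, Rars, Vars, Wars, Hars2 and Pars2. TGATGNAA, the core of the ATF4 response element, was searched on both strands. It occurred in 3.97% of all 32851 windows and in 4.51% of 27025 genes. Among the members it occurred in 5 of 32 windows and in 5 of the 30 genes: Aars, Gars, Iars, Tars and Yars. That is 5 of 13 cytosolic genes with a window, 0 of 14 mitochondrial ones and 0 of 3 scaffold genes. All 5 belong to a list of 13 synthetase genes known to be induced by ATF4. Of that list, Eprs, Mars1 and Sars had a window without the element, and Cars, Lars, Nars, Vars and Wars had no window. The other cytosolic genes with a window, Dars, Farsa, Farsb, Kars and Qars, are not on the list and lacked the element. A site of each gene is shown with 11 bases on either side, on the strand of the gene, with the matched letters in capitals, since Gars and Tars lie at opposite ends of the cytosolic levels and yet both carry the element.

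Aars, plus strand, chr8:111033840-111033869, first matched base at position 10 from the start: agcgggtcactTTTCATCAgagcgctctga
Tars, minus strand, chr15:11399655-11399684, at position -15: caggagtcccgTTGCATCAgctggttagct
Gars, plus strand, chr6:55037960-55037989, at position -30: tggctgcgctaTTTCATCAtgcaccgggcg
Iars, plus strand, chr13:49682126-49682155, at position 8: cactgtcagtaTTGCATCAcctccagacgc
Yars, plus strand, chr4:129189895-129189924, at position 4: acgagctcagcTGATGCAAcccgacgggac

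Yars alone has the element on its own strand, and in the others it reads on the opposite strand. The 13 genes of the ATF4 list had a median of 12.8 TPM and the other 7 cytosolic genes one of 12.6. Summed as a share of nuclear protein-coding TPM, the 13 were at 0.1117%, 0.1054%, 0.1127%, 0.0991%, 0.1006% and 0.1095%, with the highest library 1.14 times the lowest. The other 7 were at 0.0395%, 0.0398%, 0.0394%, 0.0398%, 0.0396% and 0.0401%, which is a ratio of 1.015. As shares of expected counts the ratios were 1.14 and 1.15, so the near-constant sum of the 7 genes was not seen in counts, where mouse 688 was lowest at 0.0157%. A match of letters does not show that a factor binds there.

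Of the scaffold genes, Aimp1 varied the most between libraries. Aimp1, which encodes the p43 subunit that binds tRNA and is also cleaved to a secreted cytokine, was at 17.54, 18.03, 10.37, 10.77, 15.41 and 11.54 TPM. Its values left a gap between 11.54 and 15.41, with mice 688, 698 and 703 below it and mice 678, 687 and 700 above it, and the highest library was 1.74 times the lowest (1.83 times in nuclear protein-coding TPM). It rested on 356 to 794 expected counts. Aimp2, the p38 subunit around which the complex is built, was at 13.01, 10.44, 10.48, 9.38, 9.46 and 11.12 TPM. Mouse 678 was its highest library, and the others lay between 9.38 and 11.12. Eef1e1, the p18 subunit, related to elongation factor 1 subunits, was at 8.18, 7.72, 7.78, 8.06, 5.92 and 9.93 TPM. Mouse 700 was its lowest library and mouse 703 its highest, with the others between 7.72 and 8.18. In nuclear protein-coding TPM, Eef1e1 ranged by 1.32-fold and Aimp2 by 1.36-fold. That unit leaves non-coding genes out of its base but keeps every transcript of a coding gene, also those not annotated as protein coding.

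**Figure D2:**
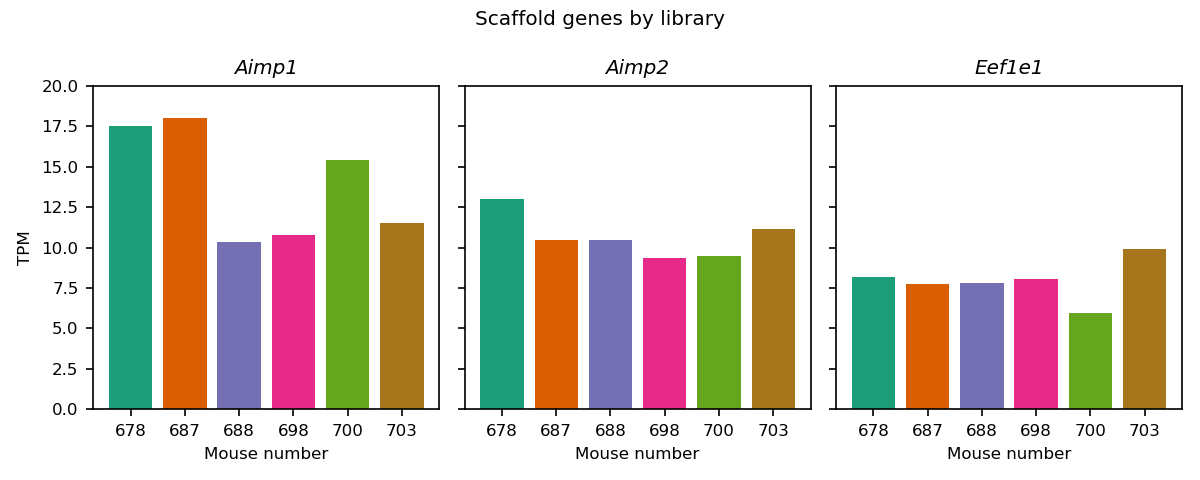
TPM (y axis, from 0) of Aimp1, Aimp2 and Eef1e1 in the libraries of the 6 numbered mice (x axis), 1 bar per library, no replicates of a mouse. Aimp1 stands between 10.37 and 11.54 in mice 688, 698 and 703 and between 15.41 and 18.03 in mice 678, 687 and 700. Eef1e1 has mouse 700 lowest at 5.92 and mouse 703 highest at 9.93, with its other libraries at 7.72 to 8.18. Aimp2 has mouse 678 highest at 13.01 and its other libraries at 9.38 to 11.12.

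Genes were ranked by how far their spread over the 6 libraries exceeded that of genes of like level (SD of log2(CPM + 1) minus a running median), and the top 5% were called most variable. This background was 751 of 15002 genes, or 5.01%, and of the 39 members 2 were called, Aimp1 (rank 379) and Lars2 (rank 463), which is the share of all genes. Without mouse 688 Aimp1 alone was called. None of the 20 cytosolic enzymes was called, and 1 of 16 mitochondrial enzymes and 1 of 3 scaffold genes were. The median SD was 0.111 over the members and 0.122 over all detected genes, on the log2 scale. Among markers of cell types, 1 of 5 excitatory neuron genes (Fezf2) and 1 of 5 inhibitory neuron genes (Pvalb) were called as well. The oligodendrocyte genes Mbp, Mog and Mag were called, at 192.38 to 318.71, 9.60 to 17.77 and 29.74 to 51.11 TPM. The striatal markers Drd1, Ppp1r1b and Adora2a were called too, with a summed level of the 4 hippocampal and striatal markers between 30.8 and 63.4 TPM, as was the haemoglobin gene Hbb-bs at 0.95 to 11.57 TPM. Astrocyte, microglia and endothelial markers had 0 of 4, 0 of 4 and 0 of 3 called, with sums of 158.4 to 196.3, 50.8 to 75.2 and 8.58 to 14.5 TPM. The part of these cells in the spread of Aimp1 and Lars2 was not tested, and in bulk tissue fewer cells of a type and less RNA per cell cannot be told apart.

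The annotated 5′ ends of the 39 members were read for the TOP letters that Larp1 binds. A C at the first base followed by at least 4 pyrimidines was counted, in the isoform with the highest median TPM of each gene. Of 13618 detected protein-coding genes 2.35% had such a start, and of the 39 members 1 did, Qars. When the C could lie up to 5 bases further in, there were 4 of the 39 (Qars, Sars, Aimp1 and Hars2), against 10.8% of genes. With any annotated isoform the members were Cars and Qars, against 10.7%, and with at least 6 pyrimidines none, against 1.18%. The first 20 bases of these transcripts (GENCODE M21, GRCm38) are shown for Aimp1, Qars and Sars and for the other 2 scaffold genes, with the C and the pyrimidines after it in capitals.

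Aimp1-201, minus strand, chr3:132683865-132683884: ggtCCTTTCTCgctgccggg
Qars-231, plus strand, chr9:108508059-108508078: CTTTTggtttccggtgtgcc
Sars-202, minus strand, chr3:108445150-108445169: acagtCCTCTCTTagtgtta
Aimp2-201, minus strand, chr5:143909820-143909839: ggggacttcattttccggaa
Eef1e1-203, minus strand, chr13:38658991-38659010: aggagctgggccagaagatg

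In Aimp1-201 the C stands 3 bases inside the annotated end and 7 pyrimidines follow the first C, which is also the run in Sars-202, where it starts 5 bases inside. Eef1e1-203 is a retained-intron transcript, so the start that was read is not that of a coding mRNA. It also held fewer expected counts (54.42 to 79.93) than the coding Eef1e1-201 (226.5 to 366.8). Qars-231 is annotated for nonsense-mediated decay, and the coding Qars-233 begins with the same letters as Qars-231. Annotated ends can lie several bases from the start used in a tissue, and start sites in cortex were not measured here. The study scored TOP starts from published start-site data of neonatal mouse cortex, and those scores were not read here.

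Mitochondrial synthetase mRNAs, apart from Lars2, were several-fold lower than the cytosolic ones. Over the 15 genes the median TPM had a median of 3.20 and ran from 1.40 to 8.64, and 1 of the 15 lay above the median protein-coding gene. Fars2, the phenylalanine enzyme, was at 9.45, 10.18, 8.51, 8.76, 7.07 and 7.97 TPM. Of this, 24.47% to 46.65% was in transcripts not annotated as protein coding. Iars2 (isoleucine) was at 6.58, 6.51, 7.13, 6.83, 6.02 and 8.90 TPM, above the threonine enzyme Tars2 (median 5.60, range 4.90 to 5.91) in all 6 libraries. At the bottom, Ears2 (glutamate) was at 1.31, 1.78, 1.46, 1.37, 1.29 and 1.82 TPM, and Wars2 (tryptophan) at 1.48, 1.21, 1.31, 1.87, 1.16 and 1.79 TPM. These 2 could not be ranked against each other, since which was higher changed from library to library. Neighbours in the order overlapped in range, except Lars2 with Fars2 and Iars2 with Tars2.

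The middle of the mitochondrial set was close together. Yars2 (tyrosine) had a median of 4.65 TPM (4.48 to 5.60), Vars2 (valine) 4.38 (2.73 to 5.39), Rars2 (arginine, mutated in a pontocerebellar hypoplasia) 4.32 (3.83 to 5.05) and Aars2 (alanine, mutated in an ovarioleukodystrophy) 3.75 (3.17 to 4.27). Hars2 (histidine) was at a median of 3.20 TPM (2.64 to 4.06), Cars2 (cysteine) at 3.05 (2.62 to 3.67), Nars2 (asparagine) at 2.53 (1.98 to 3.60) and Sars2 (serine) at 2.45 (2.21 to 2.93). Pars2 (proline) was at 1.66 (1.52 to 2.55) and Mars2 (methionine) at 1.57 (1.24 to 1.87). In Vars2, mouse 700 was apart at 2.73 TPM and the other libraries lay between 4.07 and 5.39. Its coding transcript Vars2-201 was at 1.98 TPM in mouse 700, within its range of 1.61 to 2.27, and the expected counts of the gene ran from 419 to 519. Its libraries differed by up to 1.97-fold, the most of the 15 genes without Lars2.

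Lars2, the mitochondrial leucine enzyme, was listed at 1890.11, 1596.41, 3244.33, 2681.19, 1583.58 and 2723.65 TPM. The next gene, Fars2, reached no more than 10.18 TPM. Lars2 alone held between 0.588% and 1.13% of all expected counts, from 259417 to 475575 per library. Mice 688, 698 and 703 were the highest and did not overlap with the other 3 libraries. Almost all of it was in 1 transcript. Lars2-209, annotated as a target of nonsense-mediated decay, held 99.4% to 99.8% of the TPM of the gene. Lars2-201, the full coding transcript, was at 8.45, 8.19, 5.19, 7.42, 8.49 and 8.91 TPM, within the range of Fars2 in 5 of 6 libraries, and here mouse 688 was the lowest rather than the highest.

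The 2 transcripts are nearly the same sequence. Lars2 lies on the plus strand at chr9:123366927-123462666, and each transcript has 21 exons. Lars2-209 is 3756 bases long and Lars2-201 3894, and of the bases in Lars2-209 only 6 are absent from Lars2-201. Of those, 2 extend the 3′ end past that of Lars2-201. The last exon, 1168 bases in Lars2-209, holds the 3′ end, where the mouse gene is known to carry a stretch resembling large-subunit ribosomal RNA. Reads that match both transcripts are divided between them by estimation, so the split rests on few bases, and where along the transcript the reads fell is not in the files. The lincRNA Gm42418, which lies on chromosome 17 and is known to overlap ribosomal RNA sequence, was at 13020, 9940, 21060, 17700, 9990 and 17930 TPM. It was highest in mice 688, 703 and 698, as Lars2 was, and its highest library was 2.12 times its lowest, against 2.05 times for Lars2. The share of ribosomal RNA left in each library was not measured, and its part in the Lars2 values was not tested.

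**Figure D3:**
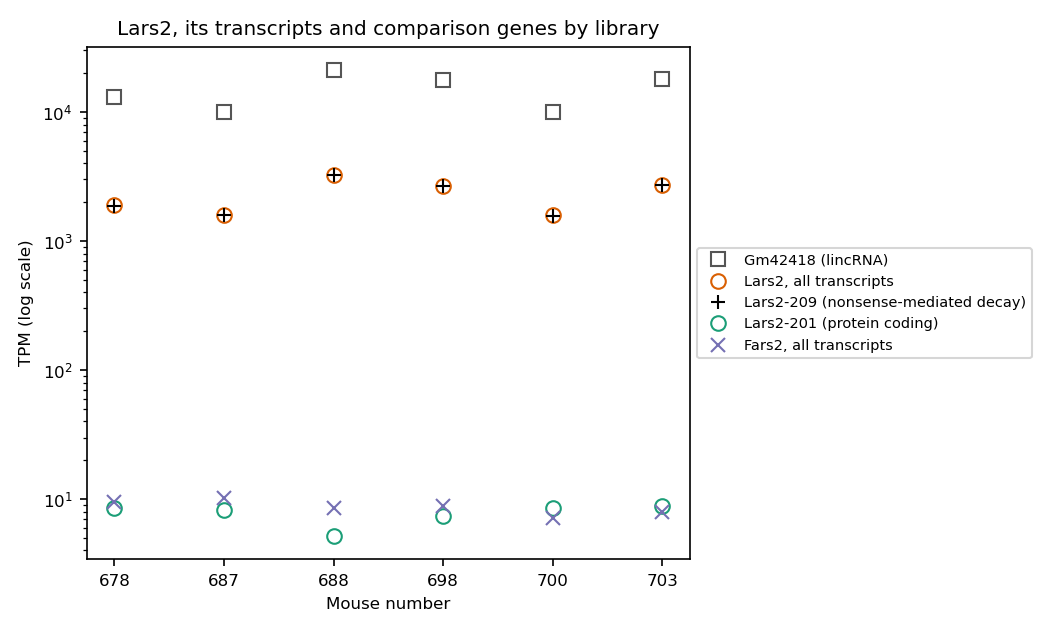
TPM on a log scale (y axis) in the libraries of the 6 numbered mice (x axis) for Gm42418, Lars2 as a whole, its transcripts Lars2-209 and Lars2-201, and Fars2, 1 point per library. Lars2-209 covers the Lars2 total, and the coding Lars2-201 lies at 5.19 to 8.91 TPM beside Fars2 at 7.07 to 10.18.

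Because of Lars2, sums over the mitochondrial enzymes depended on 1 gene. The 16 genes summed to between 0.163% and 0.330% of TPM, with the highest library 2.02 times the lowest, and the 15 without Lars2 to 0.00586%, 0.00550%, 0.00541%, 0.00586%, 0.00476% and 0.00632%. The 20 cytosolic genes summed to 0.0394%, 0.0356%, 0.0371%, 0.0355%, 0.0318% and 0.0431% of TPM. In these sums of 15 and of 20 genes mouse 703 was the highest and mouse 700 the lowest. Without Lars2 the ratio of the cytosolic to the mitochondrial sum was 6.74, 6.48, 6.87, 6.05, 6.68 and 6.82. With Lars2 it was between 0.113 and 0.216. The scaffold genes summed to between 0.00282% and 0.00387% of TPM, highest in mouse 678 and lowest in mouse 698.

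For 16 amino acids, a cytosolic and a mitochondrial gene could be set side by side, with the mean of Farsa and Farsb for phenylalanine and Eprs for both glutamate and proline. The cytosolic gene was higher in all 6 libraries for 14 of the 16. The ratio was largest for serine (median 20.9, range 18.9 to 22.1), asparagine (18.95, 12.6 to 23.9) and tryptophan (16.2, 11.8 to 18.4). It was small for phenylalanine (1.14, 1.03 to 1.59), isoleucine (1.51, 1.32 to 1.66) and valine (1.81, 1.58 to 2.82). In protein-coding transcripts alone it was 1.71 (1.64 to 2.07) for phenylalanine, 1.39 (1.27 to 1.525) for isoleucine and 3.40 (3.33 to 3.95) for valine. For threonine the genes were alike, with Tars above Tars2 in 3 of 6 libraries (median ratio 0.990, range 0.899 to 1.23). For leucine the ratio was 0.00292 to 0.00458. Over the 15 pairs without leucine the median ratio was 6.36. When only transcripts annotated as protein coding were counted, the median for asparagine (23.9) passed that for serine (20.96). The cytosolic gene was again higher in all libraries for 14 pairs, the threonine ratio was below 1 in every library (0.681 to 0.943), and the leucine ratio was 0.751, with a range of 0.547 to 1.21.

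**Figure D4:**
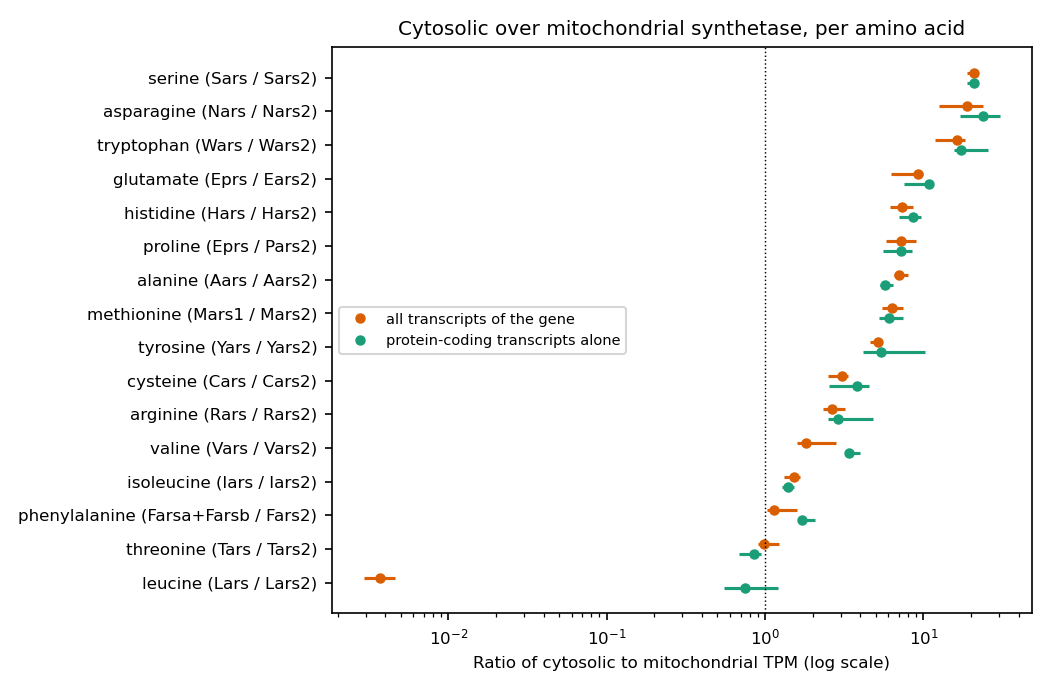
Ratio of cytosolic to mitochondrial TPM (x axis, log scale) for 16 amino acids (y axis), with the point at the median and the bar from the lowest to the highest of 6 libraries, for all transcripts of a gene and for protein-coding transcripts alone. For 14 amino acids both bars lie right of the dotted line at 1, and leucine moves from a median of 0.00371 to 0.751 when other than protein-coding transcripts are left out.

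The transcripts that carried each gene differed in kind. Of 13618 detected nuclear protein-coding genes 839 (6.16%) had over 50% of their TPM in transcripts not annotated as protein coding, and of the members 4 did, Qars, Eef1e1, Vars2 and Lars2. Qars had 63.0% to 73.4% in such transcripts, led by the nonsense-mediated decay transcript Qars-231, and 34 annotated transcripts in all, the most of the members. Eef1e1 had 55.2% to 67.6%, led by the retained-intron transcript Eef1e1-203 (53.0% to 65.9%), while the coding Eef1e1-201 held 32.4% to 44.8%. In expected counts, which are not scaled for length, the order was reversed. Eef1e1-203 had 54.42 to 79.93 per library and Eef1e1-201 had 226.5 to 366.8. Vars2 had 27.5% to 60.7%, so its place above 50% did not hold in every library. Its coding transcript Vars2-201 had 295.6 to 401.8 expected counts, beside 419 to 519 for the whole gene. The median share was 8.43% over the cytosolic genes, 17.9% over the mitochondrial genes and 3.58% over all detected protein-coding genes. Aimp1 held 94.4% to 98.8% in its coding transcript Aimp1-201. Aimp2 was split between 2 coding transcripts, Aimp2-201 (48.7% to 57.3%) and Aimp2-202 (42.8% to 48.1%).

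**Figure D5:**
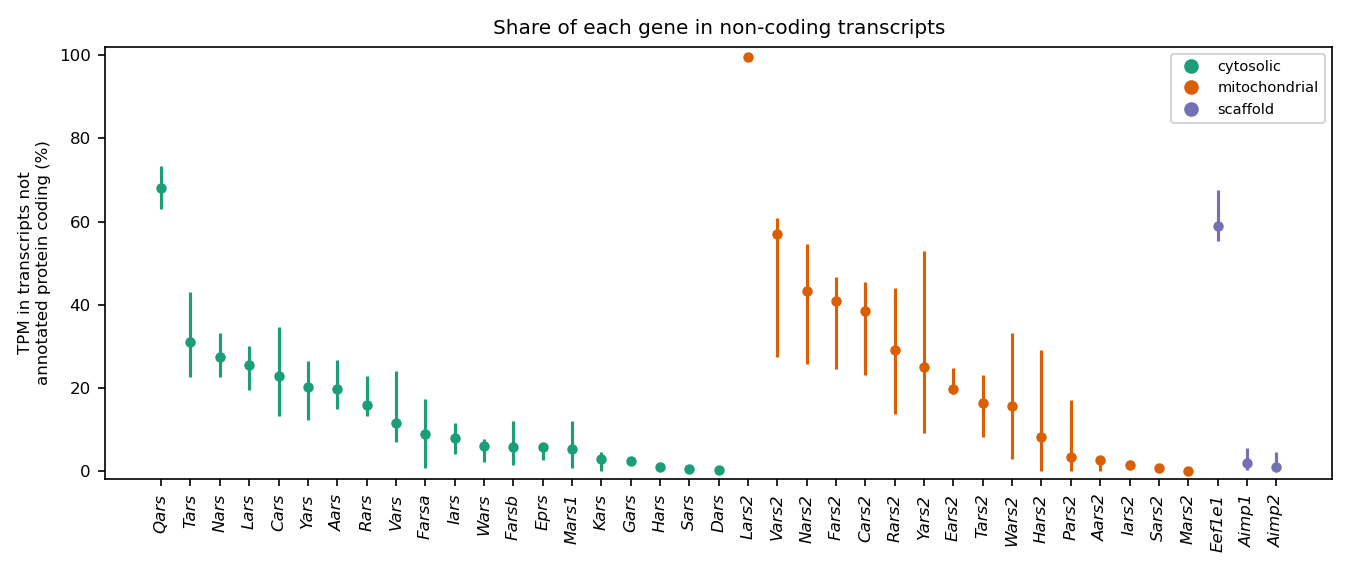
Share of the TPM of each gene in transcripts not annotated as protein coding (y axis, %), with the point at the median and the line from the lowest to the highest of 6 libraries, for cytosolic, mitochondrial and scaffold genes ordered within each set. Qars, Eef1e1, Vars2 and Lars2 have medians of 68.1%, 58.8%, 57.1% and 99.6%, and no other member has a median above 50%.

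Some members share sequence with a neighbour. Iars2 shares 2034 bases with Rab3gap2 on the opposite strand (median 13.1 TPM), Aimp2 shares 488 with Eif2ak1 (median 11.1), Cars2 217 with Naxd (median 14.5) and Hars 195 with Hars2, the gene next to it. A further 284 bases of Nars2 are shared with C230038L03Rik (median 0.04 TPM) and 130 of Vars2 with Gm20483 (median listed at 0). The labels name a kit that marks strand, and no source says whether strand was used in quantification. Without it, reads from such pairs cannot be told apart. Aars shares 1326 bases with Exosc6 on the same strand, so strand could not separate reads from these bases. Exosc6 has a median listed at 0, which depends on how such reads were divided by estimation. Iars resembles the pseudogene Gm4849 over 1656 bases at 96.0% identity, and that pseudogene had a median of 0.005 TPM.

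Differences between libraries were in part shared with other genes. In TPM, mouse 703 was the highest library for 22 of the 39 members, against 53.0% of all detected genes, and mouse 700 the lowest for 28, against 49.1%. Nuclear protein-coding genes held between 22.7% and 28.8% of TPM. As a share of these, mouse 703 was the highest for 10, against 20.65% of all genes, and mouse 700 the lowest for 8, against 18.58%. Mouse 698 was the lowest for 10 of the 39 members, against 10.79% of all genes, and for 8 of the 20 cytosolic genes. Mouse 688 was the lowest for 1 member, against 10.87%. In that unit the cytosolic sum ranged by 1.10-fold and the mitochondrial sum without Lars2 by 1.09-fold. Between the highest and lowest library the median member differed by 1.44-fold in TPM and the median detected gene by 1.49-fold, and in the rescaled unit by 1.29-fold and 1.36-fold. Values fell into separate clusters, with a widest gap in log2 TPM larger than the spread of the values above it and of those below it, for 18 of 39 members, against 38.9% of all genes. That count was 13 with TMM-scaled CPM, against 40.5%, and 20 in the rescaled unit, against 41.1%.

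The charged tRNA passes to elongation factor 1A, and uncharged tRNA is sensed by the kinase Gcn2 (Eif2ak4), which leads to ATF4. A list of 33 genes of these further steps was read the same way. Of these 32 had enough counts, and 5 were among the most variable genes, against 5.01% of all genes: Eef1a1, Eef1b2, Eef1g, Atf4 and Chac1. Eef1a1, which delivers charged tRNA to the ribosome, was at 766.86, 761.80, 404.43, 440.94, 652.00 and 549.30 TPM. Eef1b2 was at 82.24, 66.63, 40.43, 42.66, 64.34 and 48.86 TPM and Eef1g at 81.32, 78.94, 36.31, 40.29, 71.55 and 46.81, both subunits of its exchange factor. These 3 were lowest in mouse 688, as Aimp1 was, and highest in mouse 678, whereas Aimp1 was highest in mouse 687. Tufm, the elongation factor that delivers tRNA in mitochondria, was at 15.39 to 21.62 TPM and was not called.

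Atf4 was at 47.59, 44.63, 57.94, 37.88, 26.53 and 51.04 TPM, and its target Chac1, a glutathione-degrading enzyme, at 2.99, 4.10, 4.44, 2.22, 1.61 and 4.03 TPM. Both were lowest in mouse 700 and highest in mouse 688, and differed between these by 2.18-fold and 2.76-fold. The 13 synthetases of the ATF4 list summed to 0.0228% of TPM in mouse 700 and 0.0275% in mouse 688. That sum was higher still in mouse 678 (0.0291%) and mouse 703 (0.0316%). As a share of TPM it was lowest in mouse 700, which was the lowest library for 49.1% of all detected genes. As a share of nuclear protein-coding TPM it was highest in mouse 688 and lowest in mouse 698. Asns, the asparagine synthetase gene, another ATF4 target, was at 21.20 to 35.67 TPM and was not called. Eif2ak4 was at 2.40 to 3.19 TPM and Xpot, the exporter of tRNA from the nucleus, at 19.77 to 31.58 TPM.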

How the data were processed

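The data are RNA-seq of 6 numbered mice, with 12 labelled samples that no source used here ties to them. After adapter trimming (cutadapt), the authors used STAR and the mm10 genome for alignment and RSEM with UCSC annotations for quantification, and no version is stated. The authors deposited expected counts per transcript, not normalized, and TPM, whose base is the full set of 142351 listed transcripts. Because TPM covers non-coding RNA, a change in that RNA moves every value. A further 18 value columns were not used. A few items are not reported here.

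Here, 99.36% of transcripts were matched to GENCODE M21 and summed per gene, and counts were rounded. Of several records for a symbol, the one with the higher count was kept. Mars1 is named Mars there. Variability was ranked on TMM-scaled log2(CPM + 1) (edgeR 4.0.16) against a running median over 501 genes, and the top 5% of genes with a count of at least 10 everywhere were called. The script was tested on simulated data. Shared sequence was searched with BLAST+ 2.17.0+ (at least 100 bases, 95% identity). Over 15 pairs of libraries, counts differed with a chi-square of 14.8 to 67.4 per degree of freedom, more than sampling noise gives. Total counts of 34689262 to 44463362 limit precision for low genes.

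The members and lists were chosen with earlier results of these data known. Values in every library were given for the scaffold genes, most variable members, the 3 highest and 2 lowest synthetases of each set and Lars2, and others by range and median. Of the pathway genes, the most variable and at most 4 others were named. No mean ± SD and no test was made over libraries of unknown genotype. Alternatives were DESeq2 1.42.0 size factors, filters, units, denominators, isoforms and motifs, and leaving out each library.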

Additional observations from a re-analysis of the deposited data

Results flagged for a closer look

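For 2 of 39 members, a library lay far from the other 5 by Dixon's ratio (the gap to the nearest value over the whole range, above its 95% limit for 6 values). By chance about 1 in 20 groups would pass it. Wars, the cytosolic tryptophan enzyme, reached 28.64 TPM in mouse 703, and its other libraries lay from 19.07 to 22.29, with a ratio of 0.664. Yars2, the mitochondrial tyrosine enzyme, reached 5.60 TPM in mouse 703, and its other libraries lay from 4.48 to 4.79, with a ratio of 0.723. Mouse 703 was the highest library for 53.0% of all detected genes. In nuclear protein-coding TPM neither ratio exceeded the limit, and Eef1e1 (0.631) and Hars2 (0.679) did.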

How the results depend on the processing

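No paired analysis was possible because nothing links the numbered mice to the labelled replicates, and for the same reason genotypes were not compared. Of 106 values under an alternative, 87 stayed within the spread between libraries or within 1.5 times a count. Most of these came from leaving out 1 library, where 64 of 66 stayed. Under the other alternatives 23 of 40 stayed and 17 moved. Aimp1 and Lars2 were the members called most variable in every setting except without mouse 688, where Aimp1 alone was called. Leaving out 1 library at a time therefore gave 1 to 2 members and 0 to 1 mitochondrial enzymes. The cytosolic share had a median of 0.0364% of TPM, 0.147% of nuclear protein-coding TPM and 0.0855% of expected counts. The mitochondrial share had a median of 0.234% of TPM, 0.857% of nuclear protein-coding TPM, 0.795% of expected counts, 0.00568% without Lars2 and 0.00646% with Lars2 from its coding transcript alone. The scaffold share had a median of 0.00317% of TPM and 0.0127% of nuclear protein-coding TPM. The median ratio of cytosolic to mitochondrial sums was 0.175, and it was 0.117 in expected counts, 6.71 without Lars2 and 5.78 with Lars2 from its coding transcript alone. The highest over the lowest library of the cytosolic sum was 1.36, and 1.10 in nuclear protein-coding TPM and 1.11 in expected counts. For the mitochondrial sum it was 2.02, and 1.33 without Lars2 and 1.29 with its coding transcript alone. Members with a TOP start were 1, and 2 with any isoform, 0 with at least 6 pyrimidines and 4 within 5 bases. By construction, the wider TOP definitions accept more starts and the stricter one fewer. A share of nuclear protein-coding TPM is likewise larger than a share of all TPM, since its base is smaller. Lars2 makes up nearly all of the mitochondrial sum, and the cause of the other shifts was not tested. The variants with the Lars2 coding transcript, without Aimp1, and those of the amino acid pairs were chosen after seeing the data. Depth limits the low mitochondrial genes the most, and with 6 libraries of unknown genotype no difference between Larp1 WT and Larp1 KO can be given for any member.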
